A study of Mus musculus with 3 samples.

Results

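Cadherin and protocadherin genes were examined in a ChIP-seq data set on Seh1, a nucleoporin of the Y-shaped complex of the nuclear pore. The genes were those whose name in either peak list, Seh1 or IgG, begins with Cdh and a digit, or with Pcdh. This rule found 29 genes, of 9838 that were named in at least 1 of the lists. Of 16113 Seh1 peaks they held 77, and of 5314 IgG peaks 57. A gene entered by being the nearest start site to a peak, so having a peak is not itself a finding. The RefSeq gene table holds 93 genes of this name pattern, and the other 64 were given no peak in either list.

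The cells were wild-type primary neural stem cells, cultured from the cortex of newborn mice (postnatal day 0) on coated plates in growth medium with EGF and bFGF at 20 ng/ml each. All 3 libraries shared this background: 1 immunoprecipitated with an antibody to Seh1, 1 with IgG as the control for unspecific precipitation, and 1 of input chromatin, for which no peak list was used here. Cells had been fixed in 1% formaldehyde for 10 min. The labels give no number of animals behind the cultures, and peak lists carry no expression by which the labelled cell type could be checked. With 1 library per group there is no replicate error and no test between libraries. Intervals are 95% exact intervals, binomial (Clopper-Pearson) for shares and Poisson for densities, and where a count is 0 the limit it allows is that of 3 counts. They cover counting error only and are too narrow where neighbouring peaks depend on each other. The deposited peak score was 0 throughout, so height, enrichment and read depth are unknown.

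Cadherins are calcium-dependent adhesion molecules with a chain of extracellular cadherin repeats. Classical cadherins of types I and II bind catenins on their cytoplasmic side, and through them the actin cytoskeleton. N-cadherin, encoded by Cdh2, holds neural stem cells together at their apical junctions in the developing cortex. Protocadherins share the repeats but lack the catenin-binding tail. The alpha, beta and gamma protocadherins lie in tandem clusters whose variable exons are chosen differently from neuron to neuron, whereas the delta protocadherins are single genes with regional expression in the brain.

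Promoter sequence from RefSeq (GRCm38.p6, the assembly of mm10) was matched for 14 of the 29 members. Each window ran from 250 bases before to 50 bases after a start, and the family had 25, from 22 of its 93 genes. None of these overlapped a Seh1 or an IgG peak (0 of 25, which allows up to 12%). Of all 32851 windows, 0.600% overlapped a Seh1 peak and 0.0518% an IgG peak. The IgG promoter peak of Pcdhb3, given below, lay outside the 25 windows. The 250 bases before the start are printed for Pcdh18, which had the nearest Seh1 peak, and for Cdh26 and Cdh9, which had the most. Capitals mark the letters of the motif CCAAT on either strand (ATTGG on the other strand). The windows are on chromosome 3 from 49757317 to 49757566 (minus strand), chromosome 2 from 178430265 to 178430514 (plus strand) and chromosome 15 from 16728665 to 16728914 (plus strand).
Pcdh18: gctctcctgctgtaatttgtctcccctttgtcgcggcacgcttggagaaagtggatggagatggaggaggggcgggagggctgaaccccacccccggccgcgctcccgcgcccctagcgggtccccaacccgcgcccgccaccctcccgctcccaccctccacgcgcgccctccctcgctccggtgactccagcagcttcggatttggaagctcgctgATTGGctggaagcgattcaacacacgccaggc
Cdh26: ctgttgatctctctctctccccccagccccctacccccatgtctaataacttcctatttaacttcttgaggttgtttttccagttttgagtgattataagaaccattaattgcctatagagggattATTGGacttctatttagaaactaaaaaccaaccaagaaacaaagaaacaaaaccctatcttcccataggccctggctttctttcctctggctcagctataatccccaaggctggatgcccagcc
Cdh9: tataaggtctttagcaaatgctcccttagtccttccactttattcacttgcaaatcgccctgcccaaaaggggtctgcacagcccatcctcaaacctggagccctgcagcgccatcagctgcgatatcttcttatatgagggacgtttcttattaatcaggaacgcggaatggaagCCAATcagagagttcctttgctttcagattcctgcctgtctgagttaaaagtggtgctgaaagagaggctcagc

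These promoters differed in base composition. The Pcdh18 window had 23 CG dinucleotides and 68% G and C, the Cdh9 window 6 and 48%, and the Cdh26 window 0 and 42.8%, beside medians of 6 and 52.4% over all windows. CCAAT on either strand was in 15 of the 25 family windows (60%) and in 11120 of all 32851. TATAAA on either strand was in 2 of the 25 and in 4063 of all, and in none of the windows printed. Some genes have several overlapping windows, so the 25 come from 22 genes. The nearest Seh1 peak of Pcdh18 ended 936 bases from the printed window, and those of Cdh26 and Cdh9 lay 50.8 and 440.5 kb from theirs.

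Seh1 peaks were given to 23 of the 93 family genes (24.7%, interval 16.4 to 34.8%), and 31.9% of all protein-coding genes were given one. IgG peaks were given to 19 family genes (20.4%, interval 12.8 to 30.05%), against a background of 11.3%. Both kinds of peak were given to 13 of the 93 family genes (13.98%, interval 7.66 to 22.7%), beside 6.42% of all protein-coding genes. Seh1 peaks alone were given to 10 of the 93 and IgG peaks alone to 6. Of all 21779 protein-coding genes, 6938 were given a Seh1 peak, 2471 an IgG peak and 1399 both. Genes with Seh1 peaks alone thus outnumbered those with IgG peaks alone over all genes too. Nearly all of the peaks belonged to genes outside the clusters. There, 20 of 35 genes were given a Seh1 peak (57.1%, interval 39.4 to 73.7%) and 16 an IgG peak (45.7%, interval 28.8 to 63.4%). In the clusters 3 of 58 genes were given a Seh1 peak and 3 others an IgG peak. At least 4 Seh1 peaks were given to 8 of the 93 family genes (8.60%, interval 3.79 to 16.2%), beside 3.11% of all protein-coding genes. At least 4 IgG peaks were given to 6 of the 93 (6.45%, interval 2.40 to 13.5%), beside 0.739%. None had 10 or more IgG peaks, which 0.0597% of protein-coding genes had.

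Many of the genes outside the clusters are long, and long genes were given peaks more often. Among the 19 family genes of at least 100 kb outside the clusters, 11 were given a Seh1 peak (57.9%), beside 62.1% of all protein-coding genes of that length. IgG peaks were given to 12 of these 19 (63.2%, interval 38.4 to 83.7%), beside 31.7%. Among the 16 shorter genes outside the clusters, 9 were given a Seh1 peak (56.2%, interval 29.9 to 80.2%), beside 28.1%, and 4 were given an IgG peak (25%, interval 7.27 to 52.4%), beside 8.79%. The Seh1 share of the long family genes was thus close to its background, whereas the IgG share of the long and the Seh1 share of the short genes had intervals above theirs. These backgrounds were matched by gene length only. The space between a gene and its neighbours, which also bears on which start site is nearest, was not matched.

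**Figure D1:**
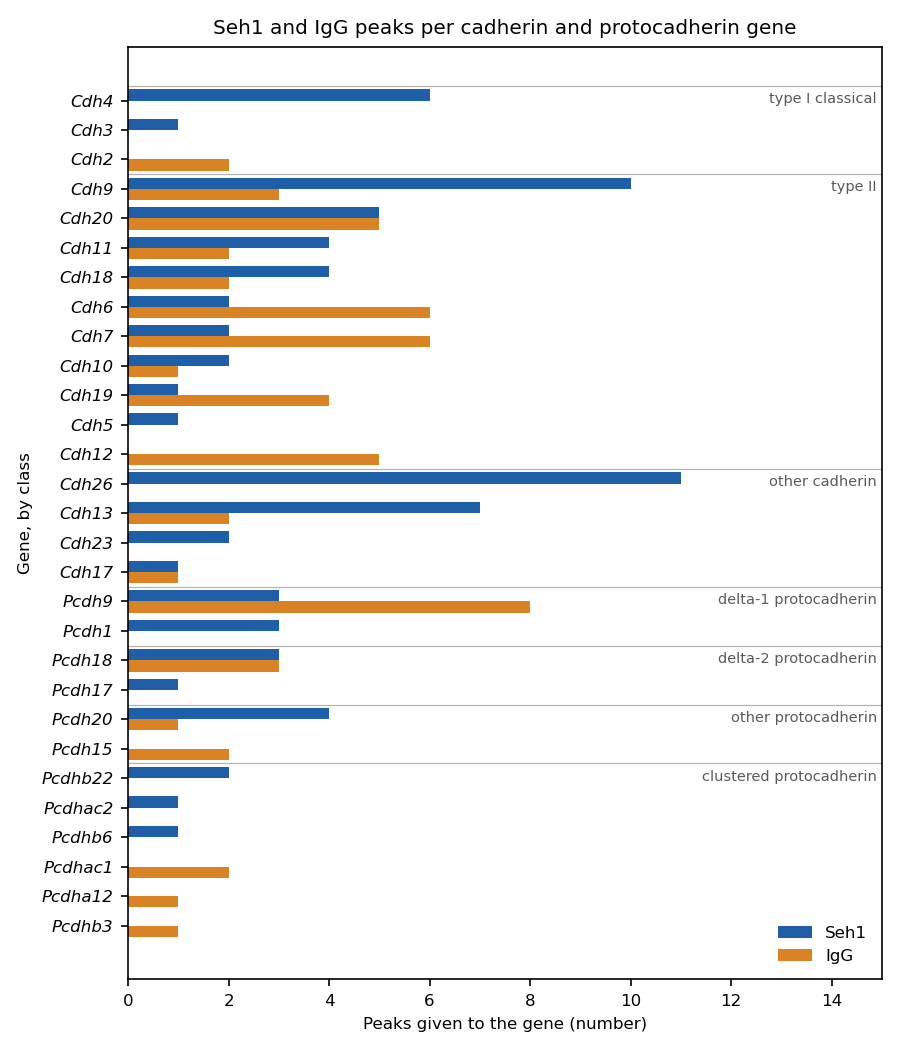
Number of peaks given to each of the 29 genes (horizontal axis) in the Seh1 library (blue) and the IgG library (orange), with genes ordered by class along the vertical axis. Cdh26 and Cdh9 have the longest Seh1 bars, with 11 and 10 peaks, and Pcdh9 has the longest IgG bar, with 8.

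The members held 0.478% of Seh1 peaks (interval 0.377 to 0.597%) and 1.07% of IgG peaks (interval 0.813 to 1.39%), values of single libraries that were not tested against each other. Of the peaks of both kinds, 57.5% came from the Seh1 list (interval 48.6 to 66.0%), beside 75.2% of all peaks. Among peaks within 100 kb of the start site the Seh1 part was 60% in the members (24 Seh1 and 16 IgG peaks, interval 43.3 to 75.1%) and 78.3% over all genes. Among peaks over 500 kb away it was 57.5% in the members (23 and 17 peaks) and 57.6% over all genes. Of the 29 genes, 16 had more Seh1 peaks, 10 had more IgG peaks and 3 had as many of each. More IgG than Seh1 peaks were found in 16.7% of all protein-coding genes with any peak.

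The balance differed by class and chromosome. Type II cadherins, the largest class outside the clusters, had 31 Seh1 and 34 IgG peaks, so 47.7% came from the Seh1 list (interval 35.2 to 60.5%). On chromosome 15, where Cdh6, Cdh9, Cdh10, Cdh12 and Cdh18 lie, members had 18 Seh1 and 17 IgG peaks, while all genes of that chromosome had 625 and 182. On chromosome 1, with Cdh7, Cdh19 and Cdh20, members had 8 Seh1 and 15 IgG peaks, and all genes had 1064 and 378. Chromosome 2 went the other way, with 17 Seh1 peaks at Cdh26 and Cdh4 and no IgG peak at either, while all genes there had 1123 and 346. Without Cdh26 and Cdh4 the members had 60 Seh1 and 57 IgG peaks (51.3% Seh1, interval 41.9 to 60.6%). Chromosome 8, with Cdh3, Cdh5, Cdh11 and Cdh13, had 13 and 4, beside 926 and 339 over all genes there (76.5% Seh1 in the members and 73.2% over all genes).

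Seh1 peaks of these genes were mostly classed as intergenic by the authors' annotation. The intergenic class held 55 of 77 (71.4%, interval 60 to 81.2%), the intron class 21 (27.3%, interval 17.7 to 38.6%) and the exon class 1 (1.299%, interval 0.0329 to 7.02%). Over the whole Seh1 list these classes held 54.3%, 36.8% and 5.37%. Other protein-coding genes of at least 100 kb had 37.1% of their Seh1 peaks between genes and 58.2% in introns. By the gene spans of the RefSeq table, 42 of the 55 intergenic peaks lay outside all genes, 9 inside another gene and 4 inside their own. The 57 IgG peaks of the members were divided into 38 intergenic (66.7%, interval 52.9 to 78.6%), 17 intron, 1 exon and 1 promoter peak, and the intergenic share over the whole IgG list was 62.5%. No Seh1 peak of the members was classed at a promoter (0 of 77, which allows a share of up to 3.90%), so the 0.881% of the whole list could not have been told from it.

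Distances from the transcription start site (TSS) were long. The median distance was 203.7 kb for the members' Seh1 peaks (interval of the median 115.5 to 306.2 kb), beside 37.8 kb for all Seh1 peaks and 62.5 kb for those of other genes of at least 100 kb. For IgG peaks the median was 251 kb (interval 187 to 408 kb), beside 57.4 kb and 101 kb. Over 500 kb from the start site lay 29.9% of the members' Seh1 peaks (23 of 77, interval 20.0 to 41.4%) and 3.49% of all Seh1 peaks. For IgG the shares were 29.8% (17 of 57) and 7.79%. Within 10 kb lay 4 Seh1 peaks of members (5.19%, interval 1.43 to 12.8%), beside 18.1% of all Seh1 peaks, and 2 IgG peaks. A peak within 10 kb was thus given to 3 family genes for Seh1 and to 2 for IgG, and 9.68% and 2.36% of all protein-coding genes had one. Within 100 kb the counts were 14 and 11 family genes of 93, beside 29.1% and 8.9% of all protein-coding genes. Peaks lay on both sides, with 35 Seh1 peaks upstream and 42 downstream of the start site.

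**Figure D2:**
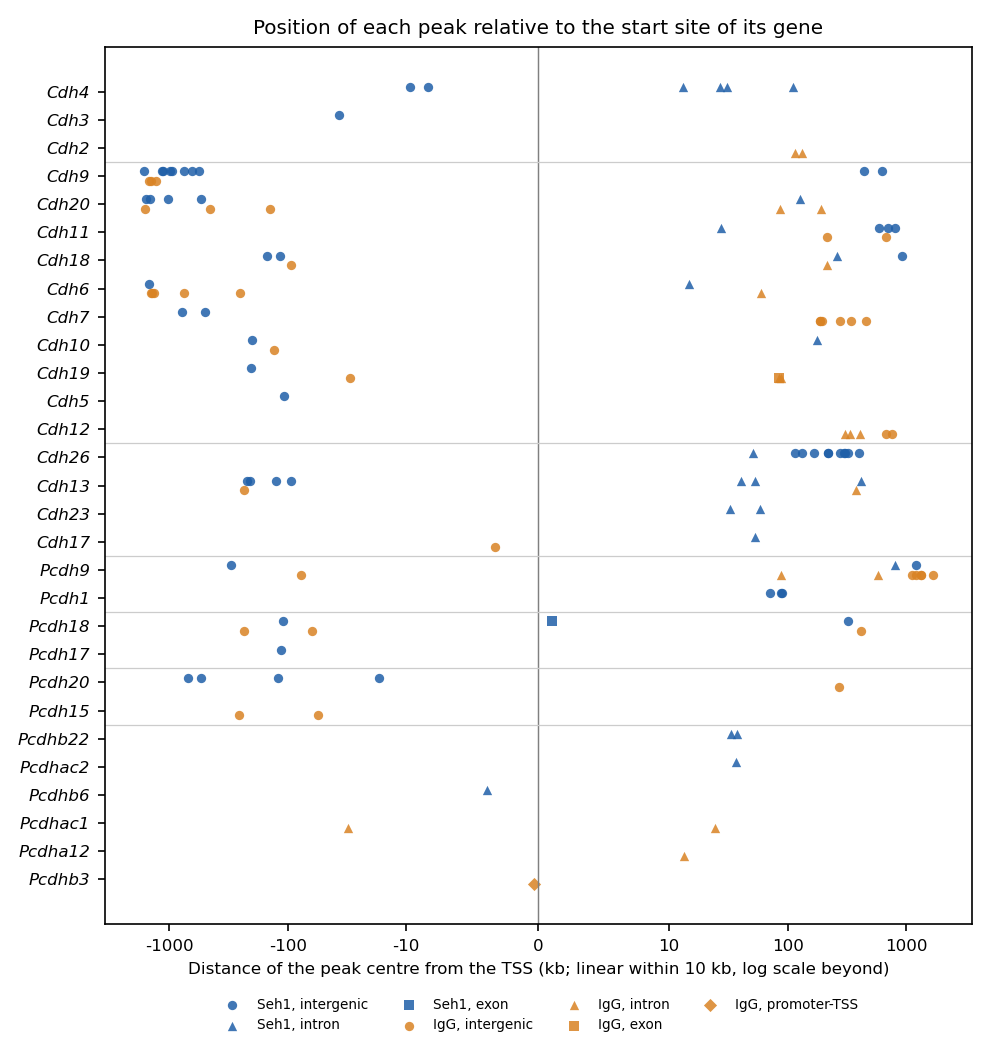
Signed distance of each peak centre from the start site of its gene (horizontal axis, kb, negative upstream; linear within 10 kb and logarithmic beyond) for the 77 Seh1 peaks (blue) and 57 IgG peaks (orange), with the annotation class as the marker shape. Few markers lie near 0, and the farthest Seh1 peaks of Cdh9 and Cdh20 lie 1633 and 1563 kb upstream.

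The repeat at a peak's centre was labelled in the intron and intergenic classes. LINE elements were at 19 of the members' 77 Seh1 peaks (24.7%, interval 15.6 to 35.8%), beside 10.6% of all Seh1 peaks, and at 22 of 57 IgG peaks (38.6%, interval 26.0 to 52.4%), beside 31.8%. Long terminal repeats (LTRs), from endogenous retroviruses, were at 17 Seh1 peaks (22.1%, interval 13.4 to 33.0%), beside 17%; 16 of these were of the ERVK family, at 20.8% (interval 12.4 to 31.5%) beside 9.91%. Without any repeat were 31 Seh1 peaks (40.3%, interval 29.2 to 52.1%), beside 60.2% of the whole list. Peaks of other classes, such as exons (1.299% of the members' Seh1 peaks and 5.37% of all), count as without a repeat. The members' peaks were also more often intergenic, and these shares were not adjusted for class. Young L1Md elements were at 8 Seh1 peaks of the members (10.4%, interval 4.59 to 19.4%), beside 3.37% of all Seh1 peaks, and at 15 IgG peaks (26.3%), beside 14.2%. Which copy of a young element a peak marks is uncertain, since the handling of reads from repeats is unknown (not given in the sources used here).

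**Figure D3:**
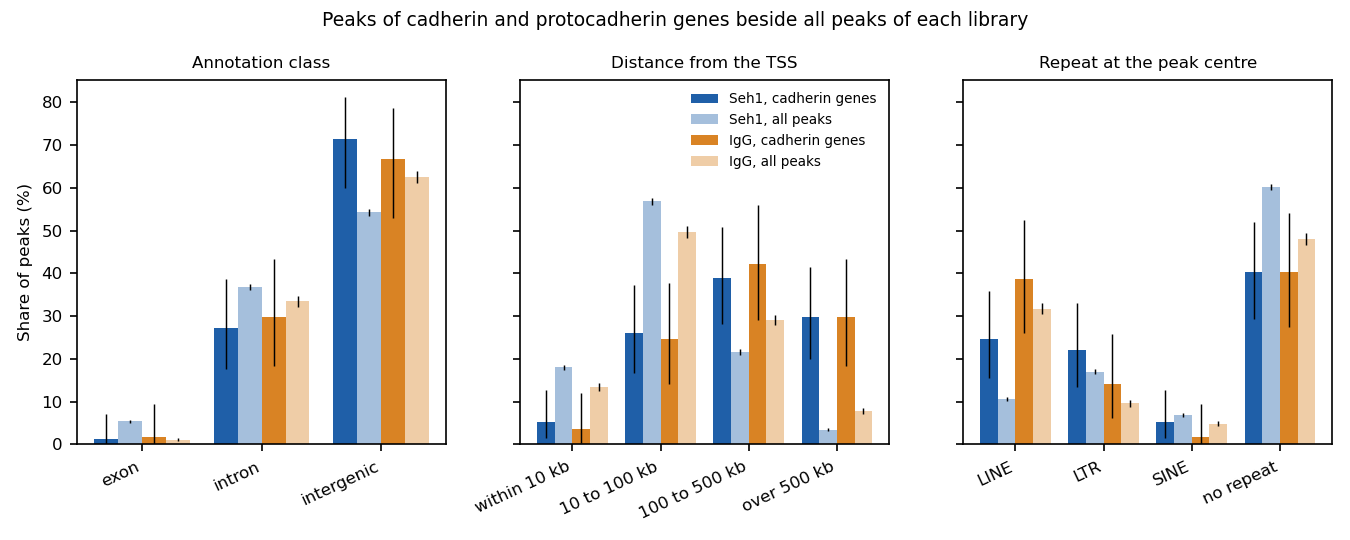
Shares of peaks (vertical axis, %) by annotation class, by distance from the start site and by repeat at the peak centre, for the cadherin and protocadherin genes (dark bars) and all peaks (light bars) of the Seh1 (blue) and IgG (orange) libraries, with 95% exact binomial intervals. In both libraries the bars over 500 kb are higher for these genes than for all peaks, at 29.9% against 3.49% for Seh1 and 29.8% against 7.79% for IgG.

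Of the 5 type I cadherins, Cdh4 and Cdh3 were given Seh1 peaks. Cdh4, which encodes R-cadherin of the nervous system, had 6 Seh1 peaks and no IgG peak. Its intergenic peaks lay 9.699 and 8.305 kb upstream of the start site, the nearest upstream Seh1 peaks outside the clusters. The others were in its intron 2, 13.05, 26.8, 30.8 and 111.2 kb downstream. Cdh3, the gene of P-cadherin, had 1 Seh1 peak in a simple repeat, 37.1 kb upstream. Cdh2 had no Seh1 peak and had IgG peaks in its intron 2, in an L1 and a DNA element, 132.5 and 115.8 kb downstream. The absence of Seh1 peaks from its span allows up to 13.6 per Mb. That is above the 6.03 per Mb of the placed chromosomes, so a lack could not be detected. Cdh1, the gene of E-cadherin, was given no peak, although a Seh1 peak of 243 bp lay in its intron 11 of 15 and was given to the neighbouring Tango6. No peak was given to Cdh15.

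Type II cadherins carried most of the far peaks. Cdh9, a cadherin gene of neurons, had 10 Seh1 and 3 IgG peaks, every one intergenic. All but 1 IgG peak carried a repeat label. Of the Seh1 peaks 8 lay upstream, from 568 to 1633 kb, and 2 lay downstream at 440.6 and 629.8 kb. No peak of either library lay inside its span of 128.6 kb. In so short a span this allows up to 23.3 peaks per Mb, so a lack could not be detected. Being given 10 or more Seh1 peaks occurred in 0.124% of protein-coding genes, yet the region from the end of Cdh6 to the start of Cdh10, in which Cdh9 lies, was 5.64 Mb long and had 2.48 Seh1 peaks per Mb (interval 1.36 to 4.16), below the 6.03 per Mb of the placed chromosomes. Cdh6 had 2 Seh1 peaks, 14.7 kb downstream in intron 1 and 1493 kb upstream, and 6 IgG peaks from 59.2 to 1433 kb away.

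Cdh20 had 5 peaks of each library. Its Seh1 peaks lay 126.2 kb downstream in intron 1 and 537, 1022, 1450 and 1563 kb upstream, all in L1 or ERVK elements, and the farthest was 561 bp wide. Its IgG peaks lay between 86.4 and 1615 kb away. Cdh7 and Cdh19, also on chromosome 1, leaned to IgG, with 2 and 1 Seh1 peaks against 6 and 4 IgG peaks. The Cdh7 Seh1 peaks, 496.7 and 787.2 kb upstream, included 1 of the 5 widest of all members, at 501 bp. The Cdh19 IgG peaks included an exon peak of 312 bp in exon 12 of 13, which was the single exon peak of the members in that list; 0.202% of all protein-coding genes were given an IgG exon peak.

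Cdh11, known from mesenchymal cells, had 4 Seh1 peaks, 27.2 kb downstream in intron 1 and 588, 700 and 804.5 kb downstream beyond the gene, and 2 IgG peaks. Cdh18 had 4 Seh1 and 2 IgG peaks. Cdh12 had 5 IgG peaks from 308 to 760 kb downstream and was given no Seh1 peak. Cdh10 had 2 Seh1 peaks and 1 IgG peak. Cdh5, the gene of VE-cadherin in endothelium, had 1 Seh1 peak 108.6 kb upstream, and a further Seh1 peak of 486 bp in its intron 2 was given to Gm29682. Cdh8, Cdh22 and Cdh24 were given no peak. Of the type II genes with a peak, 5 had more Seh1 than IgG peaks (Cdh5, Cdh9, Cdh10, Cdh11 and Cdh18), 4 had fewer (Cdh6, Cdh7, Cdh12 and Cdh19) and Cdh20 had as many.

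Among the remaining cadherins, Cdh26 had the most Seh1 peaks of the family. It was given 11 Seh1 peaks and no IgG peak. One lay in intron 13 of 14, 50.9 kb downstream of the start site, and 10 followed beyond the 3′ end, from 115.5 to 398.6 kb downstream. They were 243 to 673 bp wide with a median of 350 bp, beside 266 bp over the whole list, and the 2 widest Seh1 peaks of all members, at 673 and 654 bp, were among them. Of the 11, 10 were in no labelled repeat and 1 was in a B4 element. This is unlike Cdh9, whose 10 Seh1 peaks all carried a repeat label.

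The run at Cdh26 continued across the whole interval to Cdh4. Between the end of Cdh26 and the start of Cdh4 lay 27 Seh1 peaks in 0.955 Mb, or 28.3 per Mb (interval 18.6 to 41.1), and no IgG peak. The nearest start site gave 10 of them to Cdh26, 2 to Cdh4 and 15 to 4930591A17Rik, a gene between the cadherins. Of the 27, 23 carried no repeat label. The placed chromosomes held 6.03 Seh1 peaks per Mb on average. The interval holds 10 of the 11 peaks that ranked Cdh26 first, so its density and its Poisson limits are not independent of that ranking. A count of 0 IgG peaks allows up to 3.14 per Mb here, above the 1.98 per Mb of the placed chromosomes, so a lack of IgG peaks could not be detected. The adjoining 1 Mb bins of chromosome 2 that hold the interval had 23 and 25 Seh1 peaks, and 12 and 7 of 2672 bins held at least as many.

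**Figure D4:**
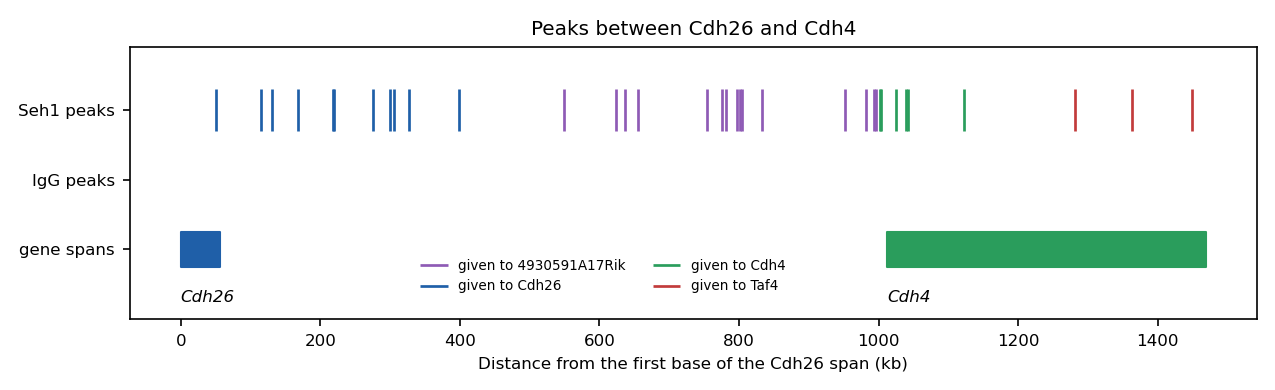
Positions of Seh1 and IgG peaks (ticks, coloured by the gene they were given to) and of the Cdh26 and Cdh4 spans (bars) along the distance from the first base of Cdh26 (horizontal axis, kb). The row of Seh1 ticks runs from Cdh26 through the interval into Cdh4, with 27 ticks in the interval, and the IgG row is empty.

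Cdh13, which encodes the GPI-anchored T-cadherin, had 7 Seh1 and 2 IgG peaks. Its Seh1 peaks lay 40.6, 53.3 and 420.8 kb downstream in introns 1 and 3 and 93.9 to 221.0 kb upstream. The upstream peak at 93.9 kb was 502 bp wide. Cdh23, whose product forms the tip links of hair cells together with that of Pcdh15, had 2 Seh1 peaks in introns 2 and 4, 32.8 and 58.2 kb downstream, and no IgG peak. Cdh17, an intestinal cadherin gene, had 1 Seh1 peak in intron 15 and 1 IgG peak 3.262 kb upstream, both in L1 elements. Cdh16 was given none.

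Of the single protocadherin genes, Pcdh18 had the Seh1 peak nearest to any start site of the family. It was also the only exon peak among the members' Seh1 peaks; 3.34% of protein-coding genes were given a Seh1 exon peak. It spanned 253 bp on chromosome 3 of mm10 from 49756128 to 49756380, in exon 1 of 4, with its centre 1062 bp downstream. The large first exon of delta-2 protocadherins encodes their extracellular cadherin repeats. The other Seh1 peaks of Pcdh18 lay 109.1 kb upstream and 326.5 kb downstream, and its 3 IgG peaks lay 62.1, 234.0 and 414.6 kb away. Pcdh17 had 1 Seh1 peak, 113.4 kb upstream in an L1 element. Pcdh10, Pcdh8 and Pcdh19, the last known from a form of epilepsy in females, were given no peak of either library.

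Among the delta-1 genes Pcdh1 had 3 Seh1 peaks, 70.6, 87.3 and 90.1 kb downstream and beyond its end, and no IgG peak. Pcdh9 had 3 Seh1 peaks, at 811.5 and 1219 kb downstream and 301.1 kb upstream, and 8 IgG peaks from 78.05 to 1678 kb away. Its region between Pcdh20 and Spertl, 7.41 Mb long, held 12 Seh1 and 17 IgG peaks. Pcdh7 and Pcdh11x were given none. Pcdh20, Pcdh15 and Pcdh12 were classed here as other protocadherins, outside the delta groups. Pcdh20 had 4 Seh1 peaks, 17.01 to 703.1 kb upstream, in L1 or ERVK elements, and 1 IgG peak. Pcdh15 had no Seh1 peak and 2 IgG peaks, 55.2 and 257.9 kb upstream, and Pcdh12 had none.

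The 3 clusters on chromosome 18, from 36930285 to 37841873 of mm10, held 4 Seh1 and 5 IgG peaks in 0.912 Mb. That is 4.39 Seh1 peaks per Mb (interval 1.20 to 11.2) and 5.49 IgG peaks per Mb (interval 1.78 to 12.8). The placed chromosomes held 6.03 Seh1 and 1.98 IgG peaks per Mb, and each value lay inside the interval of the clusters. The Seh1 peaks were given to Pcdhac2 (1 peak, 36.8 kb downstream, in intron 3 of 3 of a Pcdha6 transcript), Pcdhb6 (1 peak, 3.872 kb upstream, in an RLTR10C element) and Pcdhb22 (2 peaks, 33.0 and 37.1 kb downstream). The last 3 of these lay in intron 1 of a long transcript of Gm38667, which runs from the alpha to the gamma cluster. The IgG peaks were given to Pcdha12, Pcdhac1 (2 peaks) and Pcdhb3, and 1 to a gene outside the family. The Pcdhb3 peak lay 0.317 kb upstream of its start site and was the members' single promoter peak. No gamma gene was given a peak. Since the genes of a cluster share sequence and the alpha and gamma genes share their last exons, the assignment to 1 of them follows the nearest start site alone.

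Peaks inside the gene spans gave another view, since the nearest start site often belongs to a neighbour. The spans of the 35 genes outside the clusters covered 10.1 Mb and held 39 Seh1 peaks, or 3.87 per Mb (interval 2.75 to 5.29). All protein-coding genes held 6.91 per Mb (interval 6.75 to 7.07), and those of at least 100 kb held 6.19 (interval 5.996 to 6.39), so the interval of the cadherin genes lay below both. IgG peaks were at 2.18 per Mb (22 peaks, interval 1.37 to 3.31), beside 1.90 in both sets. Without Cdh4 and Cdh13, which held 7 and 11 of the 39 Seh1 peaks, the Seh1 density was 2.49 per Mb, so these 2 genes set much of the value.

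**Figure D5:**
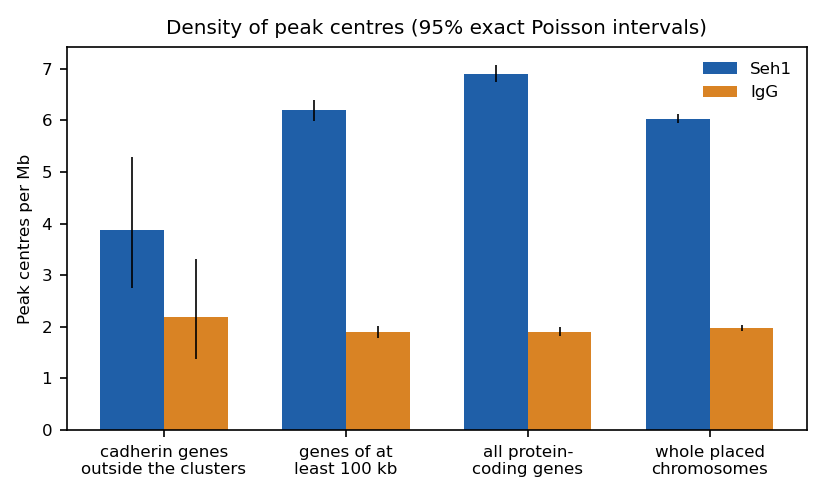
Peak centres per Mb (vertical axis) of Seh1 (blue) and IgG (orange) in the spans of the 35 cadherin and protocadherin genes outside the clusters, of protein-coding genes of at least 100 kb, of all protein-coding genes, and over the placed chromosomes, with 95% exact Poisson intervals. The Seh1 bar of the cadherin genes, at 3.87, is lower than the other Seh1 bars, while the IgG bars are of like height.

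Of the 39 Seh1 peaks in these spans, 17 had been given to another gene. The share over the spans of all protein-coding genes was not computed for either library. The count can therefore not be read as particular to these genes. At Cdh13, 6 Seh1 peaks in introns 5 and 6 were given to Hsbp1, so 11 lay in its span, against 7 given to it. At Cdh4, 3 intron peaks were given to Taf4, and 7 lay in its span. The spans of Cdh1, Cdh8, Cdh12 and Pcdh11x held Seh1 peaks although these genes were given none. In Pcdh11x there were 3, all given to H2afb3, and 1 of these was classed as exon 1 of 1 of the H2afb3 transcript, 313 bp from its start. The IgG list had 4 such reassigned peaks of 22. Conversely, 4 Seh1 peaks classed as intergenic lay inside the RefSeq table's longer span of their own gene, in Cdh13 and Cdh18, and 3 intergenic IgG peaks did so in Cdh18 and Pcdh15.

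No Seh1 peak of these genes overlapped an IgG peak (0 of 77, which allows up to 3.90%; 60 of all 16113 did). The nearest pair lay 1.72 kb apart beyond the 3′ end of Pcdh9. The median distance from a member's Seh1 peak to the nearest IgG peak was 261.9 kb, beside 259.8 kb over all Seh1 peaks. From a member's IgG peak to the nearest Seh1 peak it was 158.0 kb, beside 67.55 kb over all IgG peaks.

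Related genes were counted for comparison. Of 27 other genes of the cadherin superfamily, 11 were given a Seh1 peak (40.7%, interval 22.4 to 61.2%) and 7 an IgG peak (25.9%, interval 11.1 to 46.3%), beside the backgrounds of 31.9% and 11.3%. The giant cadherin genes Fat3 and Fat4 had 4 Seh1 peaks each, and 2 and 1 IgG peaks. Fat1, of the same group, had no Seh1 peak and 1 IgG peak. Fat2 had no peak of either library, nor had Dchs1, which encodes the Fat4 ligand. Of 18 genes for catenins and cadherin partners, 10 were given a Seh1 peak (55.6%, interval 30.8 to 78.5%) and 4 an IgG peak. The most Seh1 peaks in this list were the 5 of Farp1. Ctnna3, an alpha-catenin gene, and the plakophilin family genes Pkp1 and Pkp4 had 4 each, and Ctnna3 also had 1 IgG peak. Ctnnd2, another catenin gene, had 3 Seh1 and 5 IgG peaks. Pkp2 and Pkp3 had no peak of either library. Ctnnb1 and Ctnnd1, which encode beta-catenin and p120-catenin, had no peak of either library. Of 12 regulators of the protocadherin clusters, 4 were given a Seh1 peak (33.3%, interval 9.92 to 65.1%) and 3 an IgG peak (25%, interval 5.49 to 57.2%; Stag1, Smchd1 and Nipbl). Those with a Seh1 peak were the cohesin subunit gene Stag1, Smchd1, the DNA methyltransferase gene Dnmt3b and Setdb1, whose peak lay in an exon. Ctcf and Rad21, for CTCF and a cohesin subunit, had none. The background of 31.9% lay inside the Seh1 interval of each of these 3 lists.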

How the data were processed

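Each deposited list holds 1 line per peak. The authors' annotation, made against mm10 with HOMER annotatePeaks.pl per the file headers, gave the class, the signed distance to the nearest TSS and its gene. Bowtie2 and HOMER are named in the submitters' processing notes, which list hg18 and hg38; the headers and genes are mouse. Peak caller, threshold and depth: not given in the sources used here. In both lists the deposited score is 0 for every peak.

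Peaks were matched by gene name, and identifiers matched the RefSeq table of GRCm38.p6 for every member. Genes listed below 3 Mb were left out of that table (chromosome Y excepted), which left 21779 protein-coding genes. A peak lay in a gene when its centre did; overlap meant at least 1 bp. Intervals were computed with scipy 1.17.1 in Python 3.11.15, and the interval code was tested on simulated data. The members and lists were chosen with earlier results of these data known. Genes named were those with the most peaks of either library, peaks in exons or promoters, and the nearest, farthest and widest peaks, as well as Cdh1, Cdh2, Cdh4, Cdh5, Cdh11, Pcdh10, Pcdh19 and the clustered genes; some others are named to complete a class.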

Additional observations from a re-analysis of the deposited data

How the results depend on the processing

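No paired analysis was possible because each group has 1 library. Of 94 alternative values for 20 results, 70 stayed within their interval or within 1.5 times their count. Some of these could not have moved. Every member peak had its TSS on its gene, so keeping only such peaks repeated each value. Cdh26 had no IgG peak, so leaving it out changed no IgG value. Using only wider peaks or an overlap of 50% can only lower an overlap count, which was already 0. With centres within 1 kb, which could have raised it, the overlap count also stayed at 0. Counting peaks within 100 kb of the TSS, 14 genes were given a Seh1 and 11 an IgG peak. Counting peaks inside the spans of single genes, without the stretches between clustered genes, gave 40 Seh1 peaks (82.5% intron, 12.5% intergenic, median distance 102 kb) and 25 IgG peaks in 10 genes or clusters (at most 5 in 1 gene; 68% intron, 28% intergenic, median 93.98 kb). Such peaks are inside genes by construction. With each gene's nearest peak, the median distances were 50.9 kb (Seh1) and 86.4 kb (IgG). IgG results moved when peaks at the minimum width were left out: 33 peaks, at most 5 in 1 gene, 18.2% intron, 78.8% intergenic and 1.09 per Mb in gene spans. The cause was not tested. The background share of genes given a Seh1 peak was 62.1% for genes of at least 100 kb and 28.1% for shorter ones; for IgG it was 31.7% and 8.79%. Chosen after seeing the data, leaving out Cdh4 and Cdh13 lowered the Seh1 density in spans to 2.49 per Mb. Read depth is unknown, so a longer list cannot be told from deeper sequencing.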
